A study of Mus musculus with 28 samples.

Results

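Prss35 and Prss23 are a pair of genes for secreted proteins of the trypsin fold, and their transcripts were followed through the healing of mouse skin wounds. They were 2 of the 29068 genes in the table of raw counts, and both were among the 18107 genes with enough counts to be tested. Prss35 was picked because its increases on days 10 and 12 against day 0 were among the largest in these data (log2 fold changes of 8.30 and 6.01), and Prss23, a related gene, was set beside it as a member of the same family. RNA was sequenced from the skin wound site of C57BL/6J mice, which carry Mlkl (MLKL+/+), left to heal naturally, at days 0, 3, 5, 7, 10, 12 and 14, with 4 libraries a day and 28 in all. The mice were 8 weeks old and of both sexes, the wound was a full-thickness punch in the back, and the scab and the epithelial margin were taken with the wound. Day 0 is the control by the sample labels, whereas the study's methods call the earliest collection day 1, the day of the injury, so day 0 cannot be read as skin that was never wounded. The series text gives 5 repeats a day, and 4 a day were analysed here. Nothing in the labels ties a library to a separate mouse, so p-values measure the spread between these libraries, which may be technical in part.

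Serine proteases of the trypsin fold cut proteins with a triad of histidine, aspartate and serine, and many are secreted as inactive precursors that another protease activates at a basic site. Prss23 is known from ovary, vessel wall and developing heart valve, and Prss35 from the ovary around ovulation. Prss35 is known to lack the catalytic serine. The natural substrates of both are poorly known, and a transcript level says nothing of protease activity.

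The coding sequences show where the pair part. In the GENCODE vM21 annotation (GRCm38), the coding sequence of each gene lay in 1 exon, with 409 codons in Prss35 and 382 in Prss23. Over 376 aligned positions of the translated sequences, 196 were identical (52.1%). At the position of the catalytic serine, Prss23 has a serine codon and Prss35 has a threonine codon. The stretches around it are given 5′ to 3′ on the coding strand, with the codon of the catalytic position in capitals, from chr9:86756181-86756225 on the plus strand and chr7:89509894-89509938 on the minus strand.
Prss35 codon 342: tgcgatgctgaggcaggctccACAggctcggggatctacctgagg
Prss23 codon 315: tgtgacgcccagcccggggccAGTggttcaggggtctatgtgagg

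Both genes encode a run of 4 basic residues at the same aligned place ahead of the protease domain, the kind of site that proprotein convertases cut. It lies at chr9:86755515-86755562 on the plus strand in Prss35 and at chr7:89510461-89510508 on the minus strand in Prss23, and the capitals mark the 4 basic codons.
Prss35 codons 119 to 122: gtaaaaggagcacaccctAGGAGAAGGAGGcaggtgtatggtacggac
Prss23 codons 124 to 127: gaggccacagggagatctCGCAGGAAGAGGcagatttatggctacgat

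The longest stretch of Prss35 with no partner in Prss23 was 16 codons (197 to 212), of which 9 were basic (56.2%). Basic codons made up 14.7% of Prss35 and 14.4% of Prss23 as a whole.

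Prss35 (ENSMUSG00000033491.13) lies at chr9:86743649-86758443 on the plus strand with 2 annotated transcripts. Its nearest protein-coding neighbours are Me1, 47696 bases away, and Snap91, 7480 bases away. Prss23 (ENSMUSG00000039405.7) lies at chr7:89507783-89527187 on the minus strand with 8 transcripts, and its nearest protein-coding neighbours, Fzd4 and Me3, are 94649 and 105205 bases away. The antisense gene Prss23os (ENSMUSG00000030623.4), at chr7:89510007-89511873 on the plus strand, covers 853 of the 1146 coding bases of Prss23 (74.4%) and 864 of its 3767 exonic bases (22.9%). Prss23os was not analysed here. Whether the counting used strand is not given in the sources used here, so reads from this overlap may come from either gene. No other annotated gene overlapped Prss35.

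**Figure D1:**
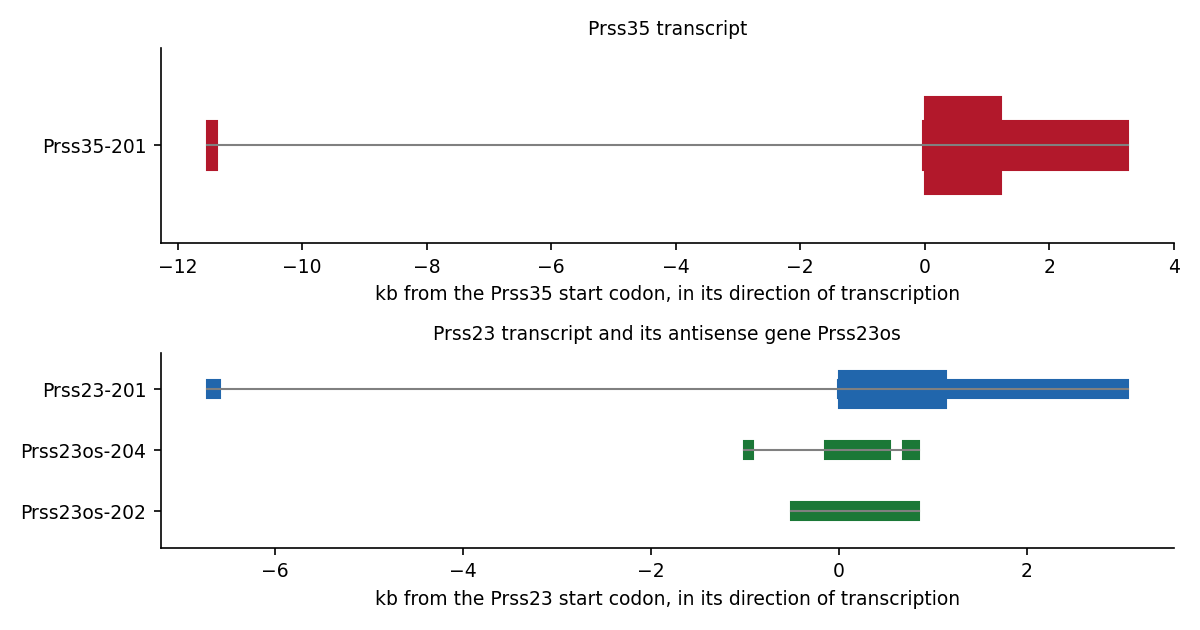
Exons (low boxes) and coding parts (high boxes) of Prss35-201, Prss23-201 and 2 transcripts of the antisense gene Prss23os, in kb from the start codon of Prss35 or Prss23 in its direction of transcription; grey lines are introns. Each protease is coded in 1 exon, and Prss23os exons lie across the first part of the Prss23 coding exon.

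The libraries held 36706513 to 40655764 counts, which is an even depth. The day 0 libraries were the least alike, with a coefficient of variation between libraries of 26.4% for a typical gene against 5.70% to 10.8% on the later days. They also fell into pairs by some lists of cell type markers. The skeletal muscle markers (Acta1, Ckm, Myh4, Tnnt3 and Actn3) summed to 12791 and 13675 FPKM (fragments scaled by gene length and by library depth) in replicates 1 and 4 and to 8358 and 8643 FPKM in replicates 2 and 3. The matrix fibroblast markers (Col1a1, Col1a2, Col3a1, Pdgfra, Dcn and Lum) summed to 5121 and 3048 FPKM in replicates 1 and 4 and to 11799 and 11369 FPKM in replicates 2 and 3. Other lists did not pair them, such as the hair follicle markers, with 667, 203, 193 and 88.7 FPKM in replicates 1 to 4, and the wound edge keratinocyte markers, with 402, 293, 295 and 273 FPKM. The label skin fits the basal keratinocyte markers Krt5, Krt14, Krt15 and Trp63, which summed to 1372 to 3479 FPKM over all libraries. As this is bulk tissue, fewer cells of a type and less RNA per cell cannot be told apart.

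Prss35 was close to silent on days 0 and 3, appeared on day 5, reached its highest level on day 10 and was lower again on days 12 and 14. On day 0 its level was 0.448, 0.151, 0.169 and 0.368 FPKM in replicates 1 to 4, from 66, 23, 25 and 51 counts. The 2 higher values came from the replicates with the higher muscle marker sums. Replicates 1 and 4 also had the higher myofibroblast sums (markers listed below), 624 and 666 FPKM against 430 and 418 FPKM. Their basal keratinocyte, Schwann cell and neutrophil sums were higher too. Their matrix fibroblast, tendon and fibrocartilage, and endothelial sums were lower. The part of tissue makeup in this was not tested. On day 3 it was 0.0204, 0.0544, 0.0542 and 0.0951 FPKM, from 3, 8, 8 and 14 counts, with every library under the lowest of day 0, a position that 28.6% of genes shared. So few counts fix the day 3 level only loosely.

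On day 5 the level was 3.80, 3.80, 3.74 and 3.48 FPKM, and the libraries were above all those of day 0 (as for 23% of genes) and of day 3 (14.1%). On day 7 it was 46.4, 41.9, 41.8 and 46.3 FPKM, and on day 10 it was 90.7, 96.0, 97.0 and 87.2 FPKM, from 13008 to 14470 counts. No day 7 library reached the lowest of day 10, as for 17.3% of genes. On day 12 the level was 19.0, 19.2, 21.9 and 20.3 FPKM. On day 14 it was 5.52, 5.59, 5.96 and 5.89 FPKM, still above every library of day 0, as for 23.4% of genes. These positions are descriptions, since they bear on the choice of the gene.

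The spread between libraries was small from day 5 on. The coefficient of variation of Prss35 was 3.82% to 6.46% on days 5 to 14, and 51.9% and 54.5% on days 0 and 3, where few counts lay behind each value. By level it was the 667th of the 29068 genes on day 10, the 9087th on day 5 and the 17352nd on day 3.

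The comparisons of Prss35 with day 0, and all those with days 10 and 12, are given as descriptions, since they chose the gene. Against day 0 the fitted log2 fold change was -2.26 on day 3, then 3.75, 7.28, 8.30, 6.01 and 4.22 for days 5, 7, 10, 12 and 14 in turn. In mean FPKM, day 10 was 327-fold above day 0. It was 1656-fold above day 3, with an exact 95% counting interval of 1179 to 2406 since the day 3 level rests on 33 pooled counts, and the fitted fold was 1512. Day 10 was 2.10-fold above day 7, and day 12 was 4.62-fold below day 10.

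Days 3, 5, 7 and 14 were not used to pick Prss35, and among these the changes were tested with edgeR's quasi-likelihood test, with p-values adjusted over all 18107 genes. From day 3 to day 5 Prss35 rose by 6.01 on the log2 scale (SE 0.22, adjusted p = 1.18e-16), and 12.9% of genes rose by the same criterion (adjusted p under 0.05). The pooled counts of 33 on day 3 and 2228 on day 5 give a ratio of 66.2 per library total, with an exact 95% counting interval of 47.0 to 96.4, which leaves out the variation between libraries. From day 5 to day 7 it rose by a further 3.53 (SE 0.13, adjusted p = 3.7e-17), where 13.9% of genes rose.

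From day 7 to day 14 Prss35 fell by 3.06 on the log2 scale (SE 0.13, adjusted p = 4.13e-17), where 33.7% of genes fell. Day 14 remained above day 3 by 6.48 (SE 0.22, adjusted p = 6.14e-20), where 34.2% of genes were higher. Both differences from day 3 depend on how its low level is scaled. With limma on log2(FPKM + 1) and on log2(FPKM + 0.1), day 5 was higher by 2.16 and 4.63 and day 14 by 2.67 and 5.25, all still called. In each of the 4 tested comparisons the libraries of one day lay wholly on one side of those of the other, as they did in the same direction for 14.1%, 14.2%, 30.9% and 32.1% of genes in turn. Tested jointly, the 4 days differed (F = 914, adjusted p = 8.49e-24), as they did for 78.2% of genes.

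**Figure D2:**
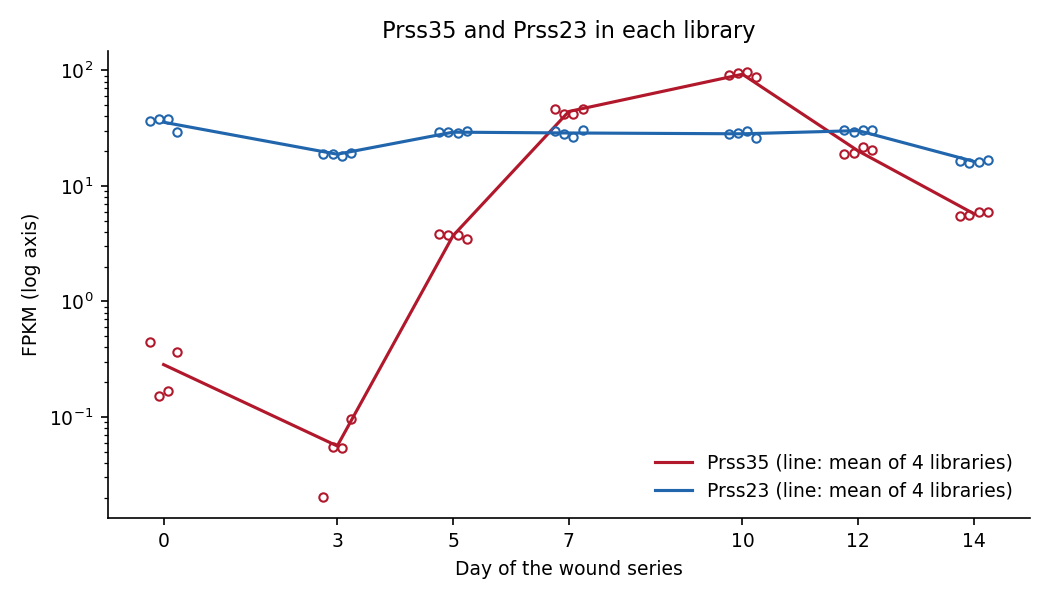
FPKM of Prss35 (red) and Prss23 (blue) against the day of the wound series on a log axis; each circle is 1 library and lines join the means of the 4 libraries of a day. Prss35 runs from 0.0204 FPKM in a day 3 library to 97.0 FPKM in a day 10 library, while Prss23 stays between 15.7 and 38.4 FPKM.

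The size of the Prss35 course was rare among the genes measured, which restates how it was chosen. Of 11756 genes with a mean of at least 10 CPM (counts scaled by library depth) on some day, 17 had a larger range between their highest and lowest day. A peak on day 10 was shared by 10.2% of the genes tested, and a peak on day 10 with the lowest level on day 3 by 4.4%.

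In the ranking that chose it (adjusted p under 0.05, no overlap with day 0 and at least 10 CPM on the day), Prss35 was second on day 10 and first on day 12. On day 10 Ucp1, the uncoupling protein of brown fat, stood above it at a log2 fold change of 8.74, and Brinp3 came next at 7.74. On day 12 Adamts18, a secreted metalloprotease, followed at 4.77 and Cyp2g1 at 4.43.

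Prss23 was expressed at every time, and no later day had a higher mean than day 0. On day 0 it was 36.8, 38.4, 38.3 and 29.0 FPKM in replicates 1 to 4, from 6031, 6517, 6307 and 4472 counts. Replicate 4 lay well under the others, and it was also the library with the lowest matrix fibroblast sum and the highest muscle sum. The part of tissue makeup in this was not tested.

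On day 3 Prss23 was 18.9, 18.8, 18.2 and 19.4 FPKM, under every day 0 library, as for 28.6% of genes. At day 5 it was 29.1, 29.2, 28.5 and 30.0 FPKM, on day 7 it was 30.0, 28.03, 26.6 and 30.4 FPKM, and on day 10 it was 27.96, 28.8, 30.2 and 26.2 FPKM. These 3 days overlapped each other and the lowest day 0 library. On day 12 the level was 30.2, 29.2, 30.4 and 30.7 FPKM, and on day 14 it was 16.6, 15.7, 16.3 and 16.6 FPKM, the lowest of the course. The place of day 12 depends on the scaling. In FPKM its libraries lay above the lowest of day 0 (29.0). In log2 CPM all of them lay below every day 0 library, as for 20.2% of genes.

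Against day 0, Prss23 was lower on each of the 6 later days by edgeR's test, and each of these comparisons shares the same 4 day 0 libraries. The log2 fold change was -0.86 on day 3 (SE 0.067, adjusted p = 7.09e-12), where 34.8% of genes were lower. It was -0.25 on day 5 (SE 0.067, adjusted p = 0.00245), where 30.6% of genes were lower, and -0.31 on day 7 (SE 0.067, adjusted p = 0.000287), where 24.8% were. On day 10 it was -0.39 (SE 0.067, adjusted p = 2.13e-05) against 26.9% of genes lower, and on day 12 it was -0.39 (SE 0.067, adjusted p = 2.75e-05) against 25.6%. Day 14 had the largest difference, -1.25 (SE 0.068, adjusted p = 9.86e-15), where 34.5% of genes were lower. Without composition normalization the day 12 value was -0.24, and with limma on log2(FPKM + 1) it was -0.23. None of the 6 passed the study's own limit of 1.5 on the log2 scale.

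Since the day 0 libraries fell into pairs by the muscle and matrix fibroblast markers, each difference was also fitted without either pair. Without day 0 replicates 1 and 4 the log2 fold changes of the 6 days, in order, were -0.96, -0.34, -0.41, -0.49, -0.48 and -1.35, all with adjusted p under 0.05. Without replicates 2 and 3 they were -0.71, -0.12, -0.21, -0.28, -0.26 and -1.07. The day 5 difference did not pass the test in that case (adjusted p = 0.149). It did not pass either when the 8 libraries of days 0 and 5 were fitted alone (-0.27, adjusted p = 0.0505).

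**Figure D3:**
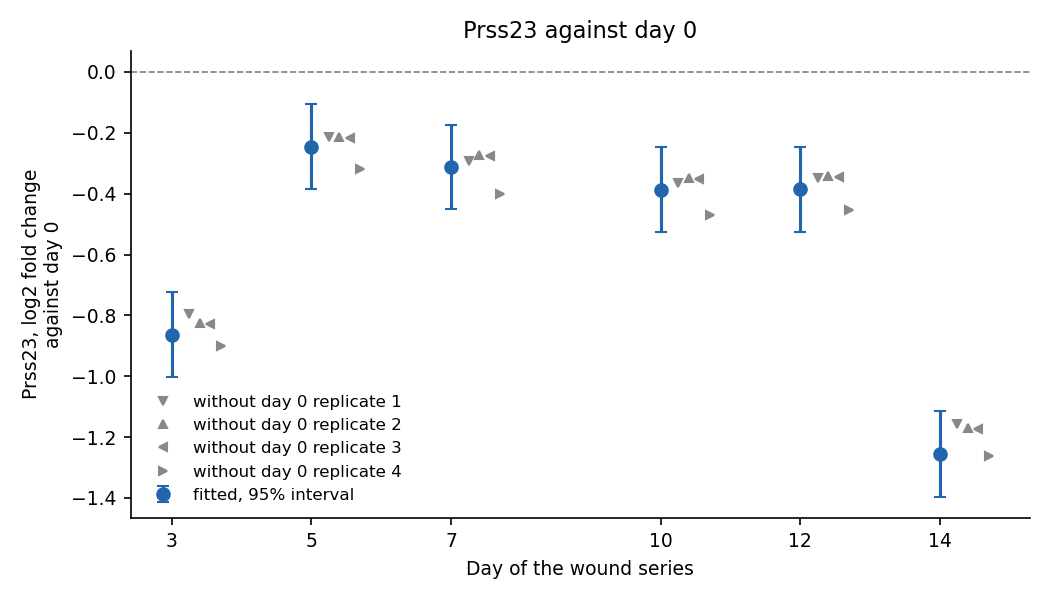
Log2 fold change of Prss23 against day 0 for each later day; blue points are the fit of all 28 libraries with the 95% interval, and grey triangles are the fits without 1 day 0 library each. All points lie below 0, and those without replicate 4 lie lowest on every day.

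Between successive days, Prss23 moved at the start and at the end of the course. It rose from day 3 to day 5 by 0.62 on the log2 scale (SE 0.067, adjusted p = 7.31e-08), in the same interval in which Prss35 rose. From day 5 to day 7 the difference was -0.07 (95% interval -0.21 to 0.07, adjusted p = 0.496). From day 7 to day 10 it was -0.07 (interval -0.21 to 0.07, adjusted p = 0.433), and from day 10 to day 12 it was 0.00091 (interval -0.14 to 0.14, adjusted p = 0.993). From day 12 to day 14 Prss23 fell by 0.87 (SE 0.068, adjusted p = 7.39e-11), where 25.3% of genes fell. The 6 days after day 0 differed jointly (F = 65.0, adjusted p = 3.66e-13), as for 85.1% of genes.

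Which of the pair was the more abundant changed over the course. Per unit of gene length, Prss23 exceeded Prss35 by 126-fold on day 0, 336-fold at day 3 and 7.89-fold at day 5. Prss35 exceeded Prss23 by 1.53-fold on day 7 and 3.28-fold on day 10. Prss23 was again the higher on day 12, when Prss35 stood at 0.667 of it, and on day 14, by 2.84-fold. The library values of this FPKM ratio of Prss35 to Prss23 were 0.116 to 0.131 on day 5 and 1.497 to 1.57 at day 7. They were 3.22 to 3.34 at day 10, 0.629 to 0.719 at day 12, then 0.333 to 0.367 at day 14. That these ranges did not overlap is a description, since days 10 and 12 chose Prss35. How often other pairs of genes part in this way was not computed.

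The ratio within a library needs no scaling between libraries, and it was tested on the days that did not choose Prss35, as the log2 of the ratio of counts, each with 1 added. For days 3, 5, 7 and 14 in turn it was -8.53 ± 0.78, -3.13 ± 0.09, 0.47 ± 0.03 and -1.66 ± 0.06 (SD, n = 4). The differences were 5.40 from day 3 to day 5, 3.60 from day 5 to day 7, -2.12 from day 7 to day 14 and 6.87 from day 3 to day 14. Each of the 4 gave p = 0.0286 in a two-sided exact permutation test, the smallest p that 4 against 4 libraries allow, and 0.0286 after Benjamini-Hochberg adjustment over the 4 tests.

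**Figure D4:**
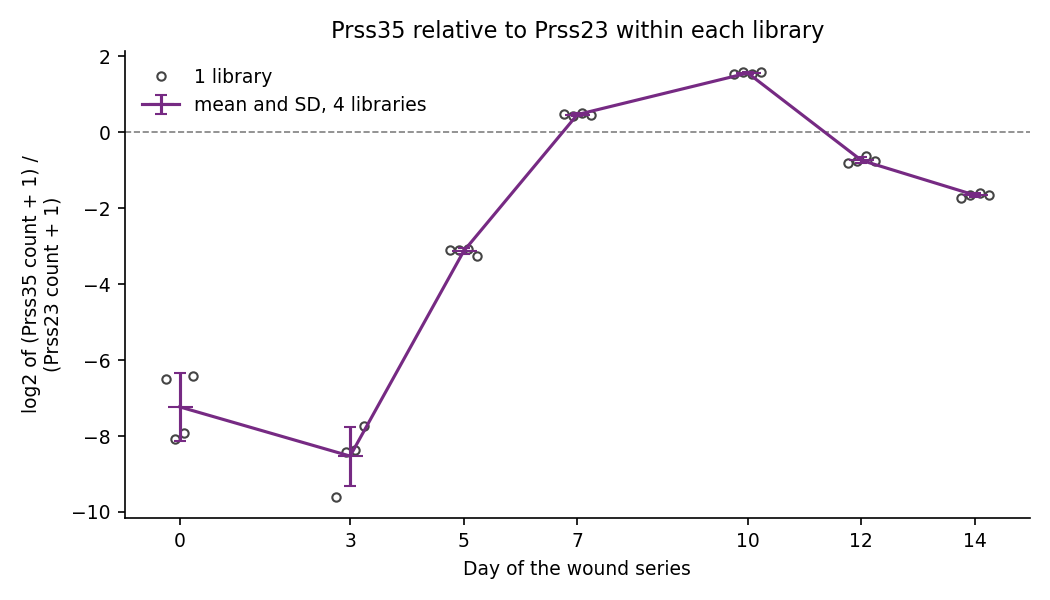
Log2 of the ratio of Prss35 to Prss23 counts, each with 1 added, in each library (circles) against the day of the wound series; bars are the mean and SD of the 4 libraries of a day, and the dashed line marks equal counts. The ratio lies above 0 on days 7 and 10 only, and the widest spread is on days 0 and 3.

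As a whole the levels of the pair were little related, though some moves were shared. Both rose from day 3 to day 5. Both fell from day 7 to day 14, with a log2 fold change of -0.94 for Prss23 (SE 0.068, edgeR's test, adjusted p = 2.46e-12). Over that interval 33.7% of genes fell. Over the 28 libraries the log2 CPM of Prss35 and of Prss23 had a Pearson r of 0.13 and a Spearman rho of 0.019. After removal of the day means, r was -0.17 and rho was 0.21. These are descriptions, since the libraries of a day are not independent points of a time course.

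The genes whose log2 CPM followed Prss35 most closely over the 28 libraries, of 14683 genes with a mean of at least 1 CPM, were F2r (r = 0.98), Postn (0.97), Mdk (0.97), Lrrc15 (0.96), St8sia2 (0.94), Plagl1 (0.94), Cdh11 (0.94), Tenm3 (0.94), Dlk1 (0.94) and Col16a1 (0.94). All but Cdh11, which peaked on day 7, had their highest mean level on day 10. F2r encodes a thrombin receptor that proteases activate, and its mean FPKM was 5.06 on day 3, 19.2 on day 10 and 10.9 on day 14. Postn encodes periostin, a matrix protein of healing wounds, with 109 FPKM on day 3, 1560 FPKM on day 10 and 453 FPKM on day 14.

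Mdk, the growth factor midkine, went from 1.93 FPKM on day 3 to 40.97 FPKM on day 10. Lrrc15, a surface protein of activated fibroblasts, went from 3.74 to 102 FPKM over the same days, and Dlk1, a Notch-family ligand of immature mesenchyme, from 0.140 to 9.23 FPKM. Cdh11, the cadherin of mesenchymal cells, had 5.84 FPKM on day 3 and 32.3 FPKM on day 7. None of these spanned the range of Prss35. The genes with the most opposite course were Sdc4 (r = -0.94), Trf (-0.91) and Rnf141 (-0.91).

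For Prss23 the closest genes were Cd34 (r = 0.93), Ust (0.93), Tmem100 (0.93), Slamf7 (0.92), Fam124a (0.92), Ctsk (0.92), Aif1l (0.92), Cgref1 (0.91), Nbl1 (0.91) and Dlg2 (0.91), and all 10 had their highest mean level on day 0. Cd34, a surface sialomucin of vessels and dermal fibroblasts, had 217, 91.3, 174 and 90.4 FPKM on days 0, 3, 12 and 14. Ctsk encodes cathepsin K, a collagen-cutting protease, and had 440, 167, 366 and 107 FPKM on those days. Among the most opposite courses were those of Odc1 (r = -0.92) and Ewsr1 (-0.91), which had their highest level on day 14.

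**Figure D5:**
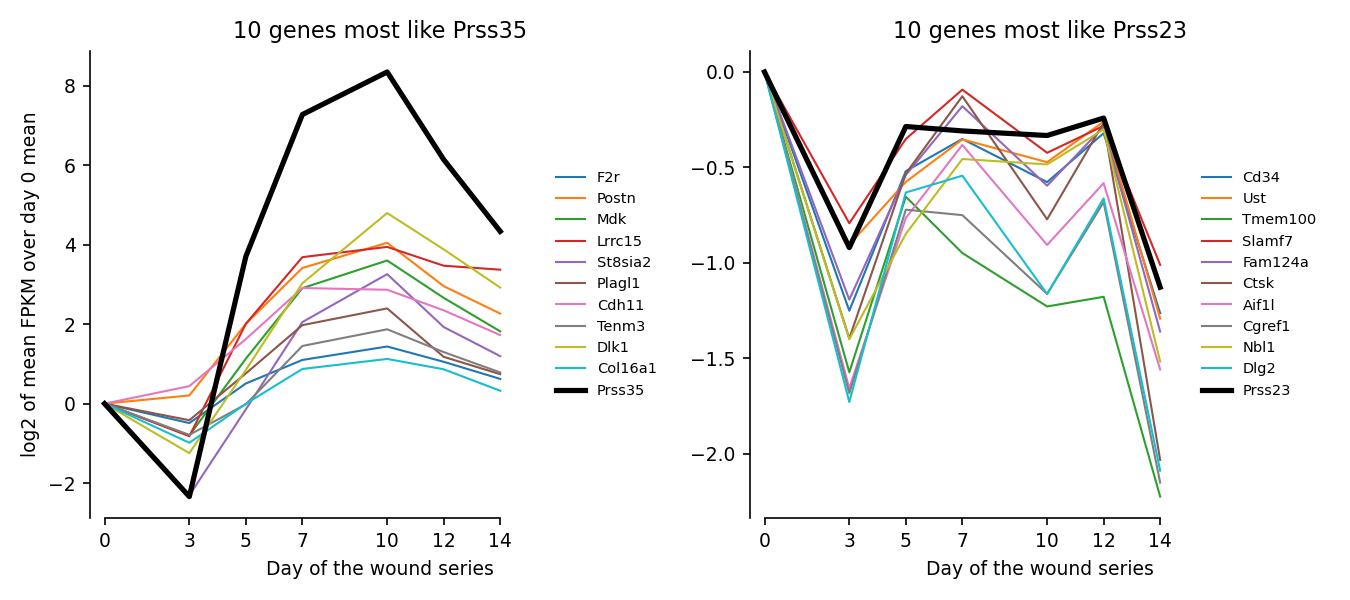
Log2 of the mean FPKM of a day over the day 0 mean, for Prss35 and the 10 genes most like it (left) and for Prss23 and the 10 genes most like it (right), each line 1 gene and each value the mean of 4 libraries. The Prss35 line goes above 8 on day 10, while no other line on the left reaches 5; on the right all lines are lower on days 3 and 14 than on day 5.

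Markers of cell types were set beside both members by the summed FPKM of each list. The 7 myofibroblast markers (Acta2, Tagln, Myl9, Cnn1, Lrrc15, Cthrc1 and Postn) moved most nearly with Prss35, with r = 0.98 over the 28 libraries. Their sum was 418 to 666 FPKM on day 0 and 288 to 310 on day 3. It then ran through 763 to 785 (day 5), 1622 to 1742 (day 7), 2237 to 2320 (day 10), 1255 to 1343 (day 12) and 1044 to 1120 FPKM (day 14). None of the 7 was at 0. Postn was the largest part of the sum on day 10, with 1560 of a mean of 2279 FPKM, so the r of the sum leans on that gene. The members of the list differed among themselves, with r to Prss35 of 0.96 for Lrrc15, 0.97 for Postn and 0.79 for Cthrc1, against 0.69 for Acta2, 0.57 for Myl9, 0.54 for Tagln and 0.18 for Cnn1.

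From day 3 to day 10, Lrrc15 rose 27.2-fold in mean FPKM, Postn 14.4-fold and Acta2, the smooth muscle actin of contractile cells, 2.14-fold, against 1656-fold (counting interval 1179 to 2406) for Prss35. Tagln and Myl9 had their highest mean on day 14, when Prss35 had a mean of 5.74 FPKM against 92.8 FPKM on day 10. The part of the number of such cells in the Prss35 course was not tested. Other lists moved less closely with Prss35, with r of 0.72 for pericytes, 0.56 for matrix fibroblasts, 0.52 for hair follicle, 0.49 for tendon and fibrocartilage, -0.34 for macrophages and -0.18 for neutrophils. The lists for adipocytes (0.16), basal keratinocytes (0.06), wound edge keratinocytes (0.03), Schwann cells (-0.0045), endothelial cells (-0.09) and skeletal muscle (-0.20) had little relation to it.

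Prss23 moved most nearly with the 6 matrix fibroblast markers (r = 0.71), whose sum was 3048 to 11799 FPKM on day 0. On day 3 it was 4292 to 4918 FPKM, after which it ran through 7491 to 7948 (day 5), 10770 to 11091 (day 7), 10486 to 11492 (day 10), 8890 to 10017 (day 12) and 3550 to 3995 FPKM (day 14). The sum is carried by the collagens and Dcn, and its members differed. Pdgfra, a receptor of fibroblasts, had a mean of 15.1 FPKM on day 0 and its highest mean, 29.1 FPKM, on day 3, when Prss23 had 18.8 FPKM against 35.6 FPKM on day 0. The mean of Dcn, a matrix proteoglycan, was 1684 FPKM on day 0, 1042 FPKM on day 3 and 528 FPKM on day 14. Macrophage and skeletal muscle markers had r = 0.49 each with Prss23, and wound edge keratinocyte markers had r = -0.67. Its r was 0.34 with tendon and fibrocartilage, 0.31 with Schwann cells, 0.25 with endothelial cells, 0.16 with pericytes, 0.11 with myofibroblasts, -0.01 with neutrophils, -0.09 with hair follicle, -0.25 with basal keratinocytes and -0.38 with adipocytes. The part of cell makeup in the Prss23 course was not tested.

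The list of other trypsin-fold proteases held 54 genes, named Prss or Tmprss with a number or added by name. Those added by name included St14, Hpn, Corin, Htra1, Htra3 and Htra4. As the list was drawn by name and not by fold, a member such as Prss16 need not have the trypsin fold. Its genes were mostly scarce, and 29 had enough counts to be tested. By edgeR's test against day 0, 9 were higher and 12 lower on day 3, where 31.8% of all genes were higher and 34.8% lower. At day 5, 8 were higher and 13 lower (29% and 30.6% of all genes). Day 7 had 8 higher and 7 lower (25.6% and 24.8% of all genes), and day 10 had 8 higher and 12 lower (23.5% and 26.9%). Day 12 had 10 higher and 6 lower (21.7% and 25.6%), whereas day 14 had 7 higher and 11 lower (28.2% and 34.5%). The median log2 fold change of the 29 genes was -0.12, -0.53, 0.04, -0.21, 0.04 and -0.38 on days 3 to 14, where the median of all genes lay between -0.06 and 0.0024.

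Corin, a membrane protease that activates a natriuretic peptide, had 0.263 ± 0.200 FPKM on day 0 (SD, n = 4), 0.0120 ± 0.0084 at day 3, 2.43 ± 0.12 at day 10 and 4.36 ± 0.24 by day 14, and rose by 3.15 on the log2 scale on day 10 (SE 0.31, adjusted p = 2.21e-09). It was highest on day 14, after the Prss35 peak.

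Tmprss11a, Tmprss11d and Tmprss11b, membrane-anchored proteases of stratified epithelia, were almost absent from day 0, with 1, 1 and 5 counts in its 4 libraries together. On day 10 these genes had 89, 64 and 103 pooled counts. They had enough counts to be tested only through the days on which they were high, so no p is given for them and their place among the genes called higher is no support for a rise. On day 5 they had 68, 114 and 365 pooled counts and on day 7 they had 99, 102 and 353. A single library held 58 of the 114 Tmprss11d counts on day 5, so no order between these days is read. On day 14 they had 2, 11 and 3 counts. No fold is given against so few counts.

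Of the 9 proprotein convertases, which cut secreted proteins at basic sites, the numbers higher than day 0 were 4, 4, 3, 3, 4 and 3 at days 3, 5, 7, 10, 12 and 14, with 3, 3, 1, 1, 1 and 1 lower. Over all genes those shares were 31.8%, 29%, 25.6%, 23.5%, 21.7% and 28.2% higher, with 34.8%, 30.6%, 24.8%, 26.9%, 25.6% and 34.5% lower. The median log2 fold change of the 9 was -0.28 on day 3 and 0.22 on day 10, where that of all genes was -0.03 and -0.02. Furin, the widely expressed convertase, had 16.3 ± 0.9 FPKM on day 0 and 32.9 ± 1.0 FPKM on day 3, and was higher on day 10 by 0.42 on the log2 scale (SE 0.071, adjusted p = 1.75e-05). Pcsk5 had 1.54 ± 0.41 FPKM on day 0 and 12.7 ± 0.3 FPKM on day 3, and was higher on day 10 by 1.65 (SE 0.11, adjusted p = 7.16e-13). Both were highest on day 3, when Prss35 was lowest.

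Pcsk6 was lower on day 10 than on day 0 by -1.01 on the log2 scale (SE 0.14, adjusted p = 1.01e-06), with 19.8 ± 7.0 FPKM on day 0 and 10.2 ± 0.3 FPKM on day 10.

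Of the 12 inhibitors of trypsin-like proteases, 11 were tested. In the same order of days, 5, 6, 7, 6, 3 and 5 of them were higher than day 0, while 5, 5, 2, 4, 3 and 4 were lower, beside 21.7% to 31.8% of all genes higher and 24.8% to 34.8% lower. Their median log2 fold change was 0.05 on day 3 and 0.78 on day 10, where that of all genes was -0.03 and -0.02. Slpi, an inhibitor of leukocyte elastase, had 1.73 ± 0.36 FPKM on day 0, 131 ± 5 FPKM on day 3 and 17.0 ± 2.5 FPKM on day 10, where it was higher by 3.24 (SE 0.14, adjusted p = 2.75e-16).

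Tfpi2, a Kunitz-type inhibitor, was the named inhibitor with a mid-course plateau, with 1.80 ± 0.28 FPKM on day 0, 11.7 ± 0.6 FPKM on day 7 and 9.45 ± 0.74 FPKM on day 10 (log2 fold change 2.34, SE 0.13, adjusted p = 1.85e-14). Spink5, which restrains epidermal kallikreins, fell by 2.02 on the log2 scale on day 10 (SE 0.15, adjusted p = 1.65e-11), from 36.1 ± 12.5 FPKM to 9.22 ± 1.24 FPKM.

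The regions before the start sites were read because the pair followed different courses. The RefSeq table of start sites (GRCm38.p6) lists 1 for Prss35 and 7 for Prss23, and the site of Prss23-201 was used. The 250 bases before the start are given 5′ to 3′ on the coding strand, at chr9:86743383-86743632 for Prss35 on the plus strand and chr7:89517587-89517836 for Prss23 on the minus strand, and the capitals mark the letters GGGCGG on either strand.
Prss35: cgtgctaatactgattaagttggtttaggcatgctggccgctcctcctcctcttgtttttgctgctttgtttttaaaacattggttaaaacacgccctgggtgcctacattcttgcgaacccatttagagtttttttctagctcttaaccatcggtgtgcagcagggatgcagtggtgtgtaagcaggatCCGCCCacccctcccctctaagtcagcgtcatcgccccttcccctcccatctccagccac
Prss23: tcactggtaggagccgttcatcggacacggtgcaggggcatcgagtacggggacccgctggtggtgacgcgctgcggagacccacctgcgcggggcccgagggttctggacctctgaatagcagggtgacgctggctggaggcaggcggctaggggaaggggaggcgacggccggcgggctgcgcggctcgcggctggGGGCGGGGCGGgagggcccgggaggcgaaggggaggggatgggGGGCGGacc

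The Prss35 region had 50.8% G and C and 8 CpG, and that of Prss23 had 74.4% and 27, where the median of 32851 start regions was 52.4% and 6. The GC box (GGGCGG), bound by the Sp1 family, had 1 match before Prss35, 60 bases from the start, and 3 before Prss23, of which 2 overlap each other, and 32.7% of all regions of this length hold it. The letters TATAAA (12.4% of all regions), TGANTCA of AP-1 (6.75%), GGAATG of TEAD (12.6%), CAGCTG of the E box (13%) and GTCTAG of SMAD (7.11%) were searched on both strands and were in neither window. Of the 8 genes most like Prss35 that have a listed start region, 5 held the GC box in at least 1 of their regions. Of the 9 most like Prss23, 5 did. A gene with several regions had more chances, so the share of single regions is no baseline for these counts. TATAAA was in 1 of the 8 and 1 of the 9, AP-1 in 2 and 2, and TEAD in 0 and 2. The E box was in 1 and 0, and SMAD in 0 and 1.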

How the data were processed

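Whole wound tissue was extracted with TRIzol, and the VAHTS Universal V6 kit served for library preparation. The authors deposited raw counts per gene symbol and FPKM values, both for 29068 genes in 28 libraries. Each FPKM equals the count scaled by 1 fixed length per gene (3774 bases for Prss35, 4195 for Prss23) and the library total. The submitters' processing notes name fastp, R 3.2.0 and mm10 (GRCm38), and the study's methods name DESeq2; the aligner, counter, annotation and strandedness are not given in the sources used here.

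The test was edgeR 4.0.16 under R 4.3.3 (TMM, filterByExpr, glmQLFit and glmQLFTest, two-sided, 1 fit of 28 libraries with 21 residual degrees of freedom), with Benjamini-Hochberg adjustment over 18107 genes. A gene was called at an adjusted p under 0.05. The steps were tested on simulated data in which few genes changed, on day 10 alone. That check does not cover data in which most genes differ between days, as they did here. Depth was 36706513 to 40655764 counts per library, and the intervals of the pooled Prss35 counts cover counting error only, whereas intervals of fitted log2 fold changes include the spread between libraries. Log2 CPM used a prior count of 2. Sequences came from GENCODE vM21 and RefSeq with Python 3.11.15 and Biopython 1.88 (BLOSUM62 global alignment). Amino acid sequences were not printed.

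Prss35, Prss23 and the gene lists were chosen with earlier results of these data known, so Prss35 was tested only on days 3, 5, 7 and 14. The genes named were the members, for each list up to 4 called genes with the largest change on day 10, the 10 genes with the highest r to each member and the neighbouring genes. Genes with the most negative r were added after their values were seen. Some genes that the rule names are not reported here. Alternatives were DESeq2 1.42.0, limma 3.58.1 on log2(FPKM + 1) or log2(FPKM + 0.1), other normalizations and filters, a replicate block, fewer libraries and, added after seeing the data, day 0 without either pair of replicates.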

Additional observations from a re-analysis of the deposited data

Results flagged for a closer look

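Of 21 groups of 4 libraries examined for a library far from the rest (log2 CPM of Prss35, log2 CPM of Prss23 and the log2 ratio of their counts on each day), 2 held one, and chance gives about 1 in 20. Prss23 in day 0 replicate 4 had a log2 CPM of 6.96, where the nearest of the others was 7.32 and the highest 7.36. The log2 ratio of Prss35 to Prss23 counts in day 5 replicate 4 was -3.26, where the others lay between -3.10 and -3.08. Prss35 had 517 counts in that library and 561 to 579 in the other 3, and Prss23 had 4953 counts there against 4751 to 4929.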

How the results depend on the processing

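Of 221 fits of Prss23 under alternatives, 219 kept their call, as did all 72 of Prss35 and all 40 of the ratio of the pair. The difference of Prss23 between days 10 and 12, which was not called under any of them, ran from -0.033 to 0.093. The exceptions were the day 5 difference of Prss23 from day 0 on the 8 libraries of the 2 days alone (-0.267, adjusted p = 0.0505) and without day 0 replicates 2 and 3 (-0.125, adjusted p = 0.149). Without 1 library at a time, that difference ran from -0.320 to -0.213, the day 7 one from -0.400 to -0.274 and the day 14 one from -1.271 to -1.156. The day 12 difference of Prss23 was -0.242 with no composition normalization and -0.226 with limma on log2(FPKM + 1). No composition normalization moved the median of all genes by 0.143 on day 12 and by 0.126 on day 14. The rise of Prss35 from day 3 to day 5 was 2.16 with limma on log2(FPKM + 1) and 4.63 on log2(FPKM + 0.1), and the day 14 difference from day 3 was 2.67 and 5.25, since a pseudocount compresses low levels. A minimum of 10 counts in every library leaves Prss35 out. For the ratio of the pair no permutation p exceeded 0.0286, the smallest possible, so a kept call says little of its size. From log2(FPKM + 0.1) its difference between days 3 and 5 was 4.00, against 5.40 in the main setting. Between days 3 and 14 it was 5.45, against 6.87.

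The counts of other trypsin-fold proteases called on days 3, 5, 7, 10, 12 and 14, which were 21, 21, 15, 20, 16 and 18, became 12, 13, 5, 12, 9 and 11 with a minimum of 10 counts in every library and 11, 12, 6, 10, 6 and 11 with a minimum mean FPKM of 1, both of which test fewer genes. Limma on log2(FPKM + 1) called 10 on day 12, and the cause was not tested. Without 1 day 0 library at a time, they ran from 11 on day 12 to 23 on day 5.

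The replicate numbers did not pair the libraries: same-numbered libraries of different days had a median correlation of -0.00091 in their deviations from the day means, and 1 of 84 pairs exceeded 0.1. With the replicate block, Prss35 differed between days 3 and 5 by 6.01 (adjusted p = 1.24e-14), Prss23 between days 0 and 5 by -0.243 (adjusted p = 0.00405), and the counts of other proteases were 21, 21, 15, 21, 15 and 18. The block changed no call of either member.

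Depth limits Prss35 on days 0 and 3, where libraries held 3 to 66 counts, and 4 libraries a day against 4 allow no exact p under 0.0286.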
